A study of Mus musculus with 23 samples.

Results

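The mitochondrial ribosomal proteins were followed through 127 probe sets of 74 genes, 88 probe sets of 47 large-subunit (Mrpl) genes and 39 of 27 small-subunit (Mrps) genes, out of 22626 probe sets on the array. A probe set was taken when the platform annotation named exactly 1 gene for it and that symbol was Mrpl or Mrps followed by a number. 3 further probe sets that name a member together with another gene were left out. 41 genes had 1 probe set and 33 had several, up to 7.

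The mitochondrial ribosome translates the few proteins that mitochondrial DNA encodes, all of them subunits of the oxidative phosphorylation complexes, which muscle fibres use to make ATP. Its proteins are encoded in the nucleus, made in the cytosol and imported, and they are assembled on ribosomal RNA transcribed in the mitochondrion. The small subunit reads the messenger RNA and the large subunit forms the peptide bond. Symbols do not always give the subunit: the Mrps18a and Mrps30 proteins sit in the large subunit, and the Mrps36 protein is better known as a part of the 2-oxoglutarate dehydrogenase complex.

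RNA of 2 muscles was measured on 23 Affymetrix arrays: the paraspinal *longissimus dorsi* (LD), which holds the spine upright, and the tongue (TN), which bears no body weight. All animals were male mice, called C57BL/N6 in the series design and C57/BL6 in the sample labels, 19 to 20 weeks old. BF mice spent 30 days in orbit on the Bion M1 satellite, BG mice 30 days on the ground in a copy of its habitat, and FC mice the time of the flight in a standard animal facility. LD was measured in 5 BF, 5 BG and 5 FC samples and tongue in 3 BF, 3 BG and 2 FC samples; neither the labels nor the methods say whether a mouse gave both muscles. The extraction protocol names 3 FC tongues, and the third is not analysed here. The labels name no transgene, and flown mice also went through launch, landing and the hours before dissection, which cannot be told apart from microgravity here. Values are log2 intensities after RMA normalisation, so 2-fold changes are differences of 1; levels of different probe sets are not compared with each other. The test throughout was limma on all arrays, with Benjamini-Hochberg adjustment over all 22626 probe sets and a threshold of 0.05.

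The mean level of fibre marker genes over 14 probe sets was 12.60 in BG LD and 11.09 in BG TN. Acta1 and Ckm were high in both muscles. Others were much lower in tongue: Myh7 was 11.51 in BG LD and 6.71 in BG TN, Tnnt1 11.77 and 7.31, and Myh2 13.37 and 8.46. Epithelial markers such as Krt13 and Krt5, 18 probe sets, averaged 4.91 in BG LD and 10.72 in BG TN, so the tongue samples held epithelium as well as muscle. BG LD replicate 5 stood apart from its group: its macrophage markers, 13 probe sets, averaged 9.22, while the BG LD mean was 7.84, the BF LD mean 7.37 and the FC LD mean 7.26. In bulk RNA, fewer cells of a type and less RNA per cell cannot be told apart.

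In both muscles the mean level of the members was highest in the mice of the ground habitat. Ground-habitat mice also had the highest mean in both muscles for cytosolic ribosomal proteins and oxidative phosphorylation subunits, given below. The mean over the large-subunit probe sets was 8.43 ± 0.11 in BF LD, 8.59 ± 0.19 in BG LD and 8.47 ± 0.10 in FC LD (SD, n = 5 each). For the small subunit the means were 8.76 ± 0.10, 8.90 ± 0.17 and 8.83 ± 0.11 in the same order. BF LD and FC LD overlapped in both subunits. BG LD overlapped them only through replicate 5, at 8.26 and 8.60; the other 4 BG LD arrays lay between 8.63 and 8.72 and between 8.94 and 9.04, above every BF LD and FC LD array.

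In tongue, the large-subunit mean was 8.10 ± 0.08 in BF TN (SD, n = 3), 8.28 ± 0.07 in BG TN (n = 3) and 7.95 ± 0.01 in FC TN (n = 2). The small-subunit mean was 8.29 ± 0.07, 8.42 ± 0.08 and 8.20 ± 0.03. Both FC TN arrays, at 7.95 and 7.94 for the large subunit, lay below every BF TN and BG TN array. For the small subunit the BF TN array with the lowest mean, 8.21, lay between the FC TN arrays at 8.22 and 8.18.

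**Figure D1:**
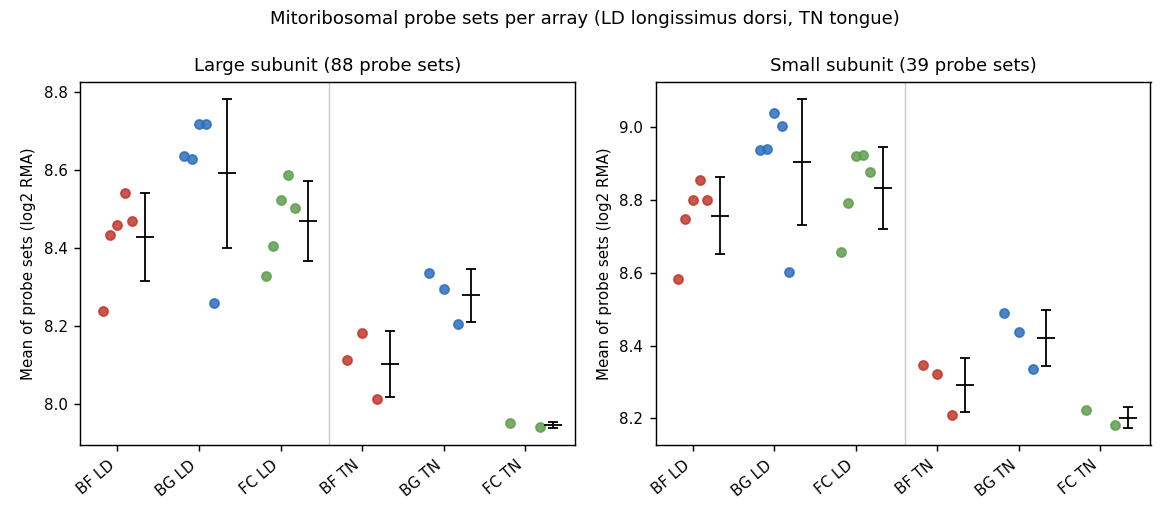
Mean of the large-subunit (left) and small-subunit (right) probe sets on each array, on the log2 RMA scale, for the 6 groups; points are arrays and the bars beside them the group mean with its SD. BG LD replicate 5, at 8.26 and 8.60, lies apart from the other BG LD arrays, and both FC TN arrays lie below every BG TN array.

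Taken probe set by probe set, BG LD was the highest of the 3 LD groups for 58 of 88 large-subunit and 25 of 39 small-subunit probe sets (65.9% and 64.1%; 41.0% over all probe sets). BG TN was the highest tongue group for 60 of 88 and 25 of 39 (68.2% and 64.1%; 30.8% over all probe sets). The lowest LD group was most often BF LD, for 53 and 26 probe sets (60.2% and 66.7%; 38.4% over all). In tongue it was FC TN, for 60 and 24 (68.2% and 61.5%; 34.6% over all). These shares are a description, since the probe sets share arrays.

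In LD, flown mice had lower values than ground-habitat mice for 18 member probe sets of 17 genes, and a higher value for 1. Of all probe sets, 3.83% were lower and 6.41% higher in this comparison. 14 of the 88 large-subunit probe sets fell and none rose; in the small subunit 4 of 39 fell and 1 rose. The median difference was -0.14 for the large and -0.16 for the small subunit, against -0.03 over all probe sets, and no member changed by over 2-fold.

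Mrps16, a protein of the small-subunit body that is conserved from bacteria, had the smallest adjusted p. Its values were 10.46, 10.57, 10.58, 10.51 and 10.52 in BF LD, 11.18, 11.19, 11.14, 11.10 and 10.61 in BG LD, and 10.61, 10.75, 10.99, 10.82 and 10.96 in FC LD. The BF LD arrays were tightly grouped and all lay below the lowest BG LD array, replicate 5. BF minus BG was -0.52 (SE 0.10, adjusted p = 0.00299), a 1.43-fold decrease.

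The small-subunit protein Mrps24, which lies where messenger RNA enters the ribosome, fell at both of its probe sets. The first gave 10.56, 10.83, 10.61, 10.89 and 10.85 in BF LD, 11.43, 11.33, 11.43, 11.43 and 10.75 in BG LD, and 10.77, 11.02, 10.89, 11.06 and 11.14 in FC LD. 4 BG LD arrays lay above all others, and replicate 5 fell among the BF LD values. The difference was -0.52 (SE 0.12, adjusted p = 0.00813) there and -0.50 (SE 0.12, adjusted p = 0.0104) at the other, where the groups did not overlap.

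Mrpl23 and Mrpl22 belong to the proteins around the exit of the peptide tunnel. For Mrpl23 the values were 10.63, 10.80, 10.80, 10.87 and 10.72 in BF LD, 11.36, 11.30, 11.17, 11.35 and 10.88 in BG LD, and 10.74, 10.94, 11.08, 11.03 and 11.05 in FC LD. No BF LD array reached the lowest BG LD array, and BF minus BG was -0.45 (SE 0.10, adjusted p = 0.00555). Mrpl22 had 9.90, 10.04, 10.02, 10.12 and 9.99 in BF LD and 10.65, 10.56, 10.55, 10.45 and 10.04 in BG LD. Its groups overlapped only through BG LD replicate 5, and the difference was -0.44 (SE 0.10, adjusted p = 0.00971).

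Mrpl20, whose bacterial counterpart binds ribosomal RNA early in assembly, showed the widest difference among the members in this comparison. It had 9.31, 9.58, 9.56, 9.56 and 9.49 in BF LD, 10.32, 10.18, 10.07, 10.33 and 9.71 in BG LD, and 9.52, 9.34, 9.84, 9.69 and 9.67 in FC LD. BF LD and BG LD did not overlap, and all FC LD arrays except replicate 3 lay below every BG LD array. The BF minus BG difference was -0.62 (SE 0.14, adjusted p = 0.0079).

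Mrpl12, Mrpl10 and Mrpl11 form or anchor the flexible stalk that recruits translation factors to the large subunit. Mrpl12 had 10.11, 10.48, 10.42, 10.49 and 10.55 in BF LD and 10.92, 10.85, 10.96, 11.01 and 10.48 in BG LD. BG LD replicate 5 fell among the BF LD values and the other BG LD arrays lay above them, with a difference of -0.44 (SE 0.11, adjusted p = 0.0139). Mrpl10 and Mrpl11, the latter at 1 of its 4 probe sets, did not pass, at -0.12 (SE 0.09, adjusted p = 0.476) and -0.16 (SE 0.08, adjusted p = 0.224).

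The other large-subunit genes that fell in BF LD against BG LD were Mrpl1, Mrpl13, Mrpl15, Mrpl21, Mrpl33, Mrpl42, Mrpl48, Mrpl49, Mrpl55 and Mrpl58, with differences of -0.32 (Mrpl15) to -0.55 (Mrpl48) on the log2 scale. Each passed at 1 probe set. Mrpl55 and Mrpl58 have no other, and those of the remaining 8 genes did not pass, with differences from -0.49 (Mrpl48) to 0.24 (Mrpl15); for Mrpl1 they were 0.00 and -0.01. The Mrpl58 protein is a peptidyl-tRNA hydrolase that became part of the ribosome. For Mrpl42 the probe set that passed lies below the median level of all probe sets on these arrays, and another gave -0.24 (SE 0.12, adjusted p = 0.23). Mrps36 was the last small-subunit member to pass, at -0.42 (SE 0.13, adjusted p = 0.0456); 9 of the 10 fits that left out 1 array lost this call.

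Mrps2 went the other way. 1 of its probe sets had 8.38, 8.54, 8.60, 8.63 and 8.51 in BF LD, 7.76, 8.24, 8.49, 8.29 and 8.09 in BG LD, and 8.43, 8.57, 8.46, 8.72 and 8.70 in FC LD. 4 of the 5 BG LD values lay below all BF LD and FC LD values, and the BG LD array at 8.49 lay among them. The difference was 0.35 (SE 0.10, adjusted p = 0.0335) for BF minus BG, and 6 of the 10 fits that left out 1 array lost the call.

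Several genes with central roles in translation did not pass in this comparison. Mrps12, part of the decoding centre, gave 0.07 (SE 0.09, adjusted p = 0.715), Mrps7 of the small-subunit head -0.16 (SE 0.09, adjusted p = 0.329), and Mrps5 at 1 probe set -0.20 (SE 0.15, adjusted p = 0.448). Mrpl3, which lines the peptidyl transferase centre, had 3 probe sets between -0.14 and 0.08. Mrpl44 was among the members with positive differences, 0.16 to 0.34 over 3 probe sets. The paralogues Mrps18a, Mrps18b and Mrps18c gave -0.05 (SE 0.11, adjusted p = 0.84), -0.16 (SE 0.11, adjusted p = 0.41) and -0.38 (SE 0.17, adjusted p = 0.163).

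**Figure D2:**
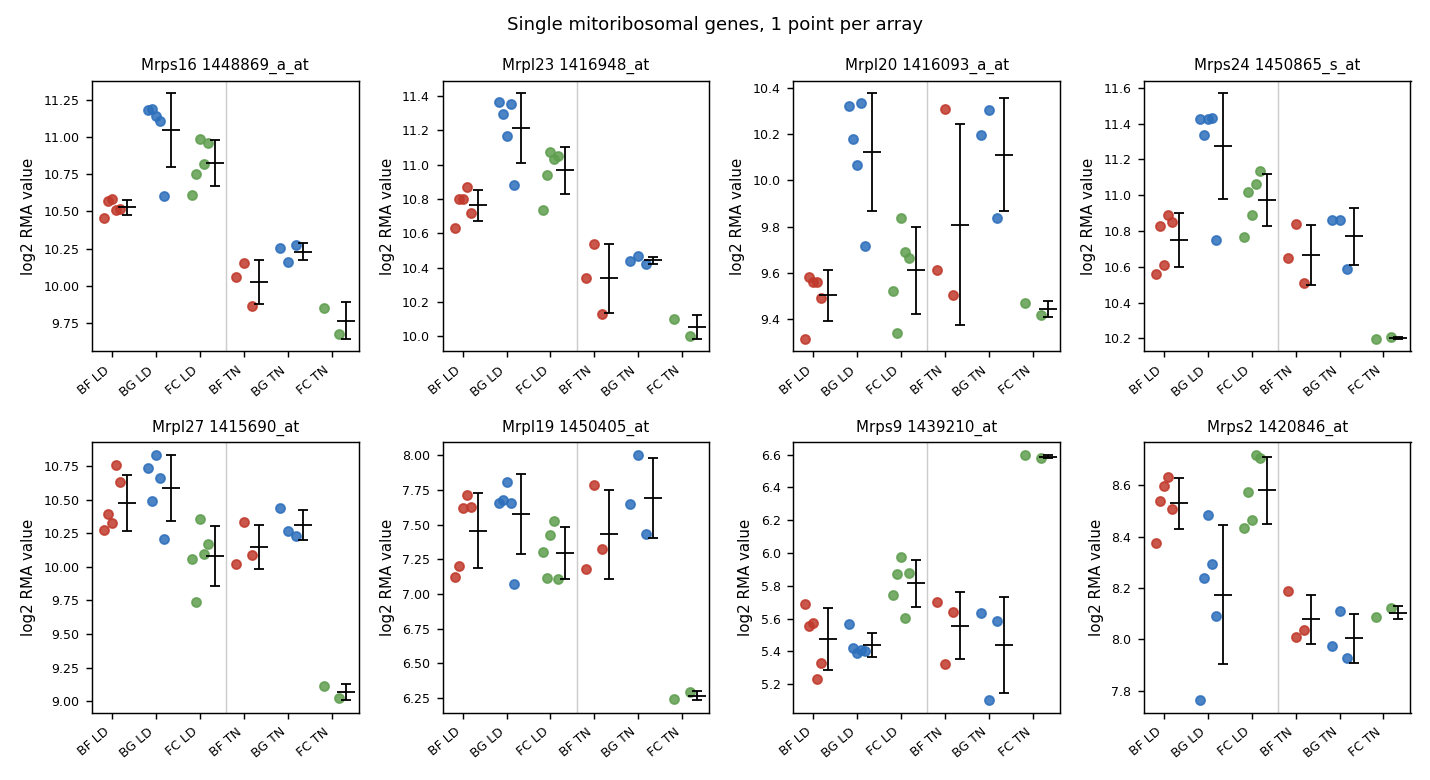
Values of 8 member probe sets on every array (log2 RMA scale), by group; the bars beside the points are the group mean and SD. Mrps16, Mrpl23, Mrpl20 and Mrps24 have their lowest LD mean in BF, Mrpl27 and Mrpl19 are lowest in FC TN, and 1 probe set of Mrps9 is highest in FC TN.

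The number of members called depended on single arrays. Without BG LD replicate 5 the count rose from 19 to 47, of which 45 were lower in BF LD, while the count over all probe sets rose from 2318 to 3869, and the median difference became -0.23 for the large and -0.26 for the small subunit. Without any 1 of BF LD replicates 1, 2, 3 and 5 or BG LD replicates 1, 2, 3 and 4, the number past the threshold was between 8 and 12, and between 1272 and 2005 over all probe sets. The calls of Mrps16, Mrps24, Mrpl23, Mrpl20, Mrpl22 and Mrpl12 were kept in all 10 of these fits, with adjusted p up to 0.0411. Macrophage markers had a median BF minus BG difference of -0.44 in LD over 13 probe sets of 9 genes, with 0 past the limma threshold. BF LD arrays lay at 6.77 to 7.97 and BG LD arrays at 7.26 to 9.22, the highest being replicate 5. Fibroblast markers had a median of -0.45, with 1 of 10 probe sets passing. The part of these cells in the member differences was not tested.

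**Figure D3:**
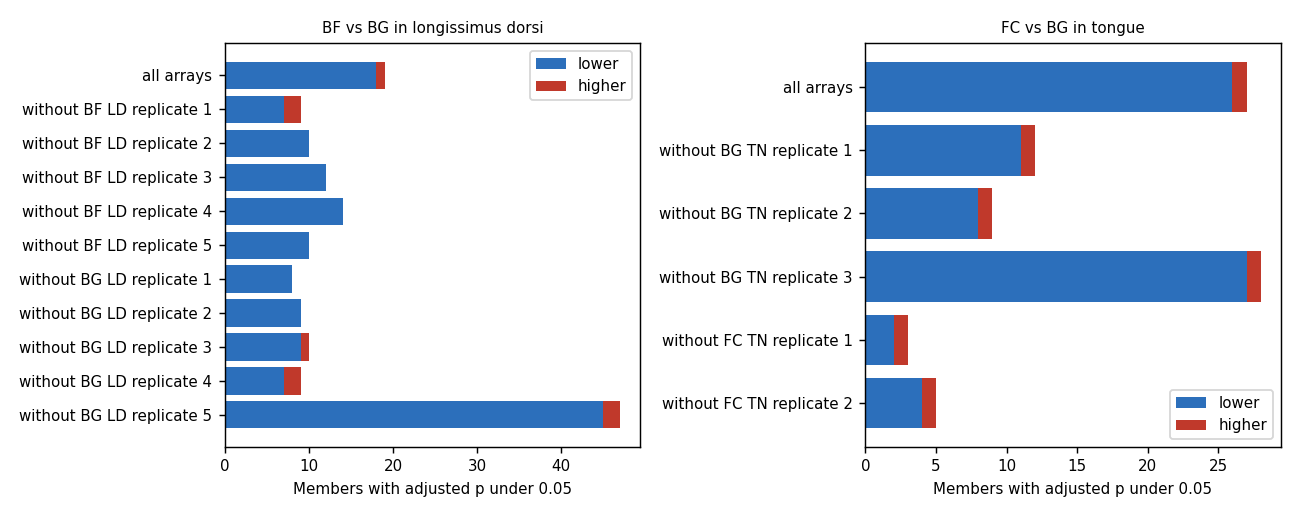
Number of member probe sets with an adjusted p under 0.05 (horizontal axis) with all arrays and with each array left out in turn, for BF against BG in LD (left) and FC against BG in tongue (right); blue is lower and red higher. In LD the count ranges from 8 to 47 and in tongue from 3 to 28.

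Between facility and ground-habitat mice, 6 members passed in LD (4.72%), a smaller share than the 8.95% of all probe sets. 4 large-subunit probe sets were lower and 2 small-subunit ones higher in FC LD than in BG LD; of all probe sets 2.16% were lower and 6.79% higher. The medians were -0.12 for the large and -0.10 for the small subunit, against -0.01 over all probe sets. These calls also depended on single arrays: without BG LD replicate 1 the count was 0 and without replicate 5 it was 45, 41 of them lower. Over all probe sets the counts were 1013 and 3661, where all arrays gave 2025. The member count was 1 to 3 without BG LD replicate 2, 3 or 4 or FC LD replicate 2 or 3, with 1004 to 1881 over all probe sets. Macrophage markers had a median FC minus BG difference of -0.43, with 2 of 13 probe sets passing. BG LD replicate 5, the BG LD array highest in these markers, enters that difference. The part of these cells was not tested.

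Mrpl27, the counterpart of a bacterial protein whose tail reaches into the peptidyl transferase centre, led these calls. Its values were 10.27, 10.39, 10.33, 10.76 and 10.64 in BF LD, 10.74, 10.49, 10.84, 10.66 and 10.21 in BG LD, and 10.06, 9.74, 10.36, 10.10 and 10.17 in FC LD. FC LD was the lowest group but overlapped the lowest BG LD array, and FC minus BG was -0.50 (SE 0.13, adjusted p = 0.0165). Mrpl20 fell by 0.51 (adjusted p = 0.0277), Mrpl51 by 0.42 at 1 probe set (adjusted p = 0.0476) and Mrpl13 by 0.38 at 1 probe set (adjusted p = 0.0499).

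The members that were higher were Mrps2, 0.41 (SE 0.10, adjusted p = 0.0193) at the probe set that rose in BF LD, and 1 of the 4 probe sets of Mrps9. Mrps9 belongs to the small-subunit head. The probe set had 5.69, 5.56, 5.58, 5.23 and 5.33 in BF LD, 5.57, 5.42, 5.39, 5.41 and 5.40 in BG LD, and 5.74, 5.87, 5.98, 5.60 and 5.88 in FC LD. Every FC LD array lay above every BG LD array, and the difference was 0.38 (SE 0.11, adjusted p = 0.0365).

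Between BF LD and FC LD, limma called 0 members, with 2.06% of all probe sets higher and 1.6% lower in BF LD. 9 members (7.09%; 15.9% of all probe sets) had an unadjusted p under 0.05, and array weights gave 4 member calls and 1672 over all probe sets. The medians were -0.05 for the large and -0.09 for the small subunit. BF LD and FC LD were compared with the same BG LD arrays, so their differences from BG LD are not independent of each other.

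**Figure D4:**
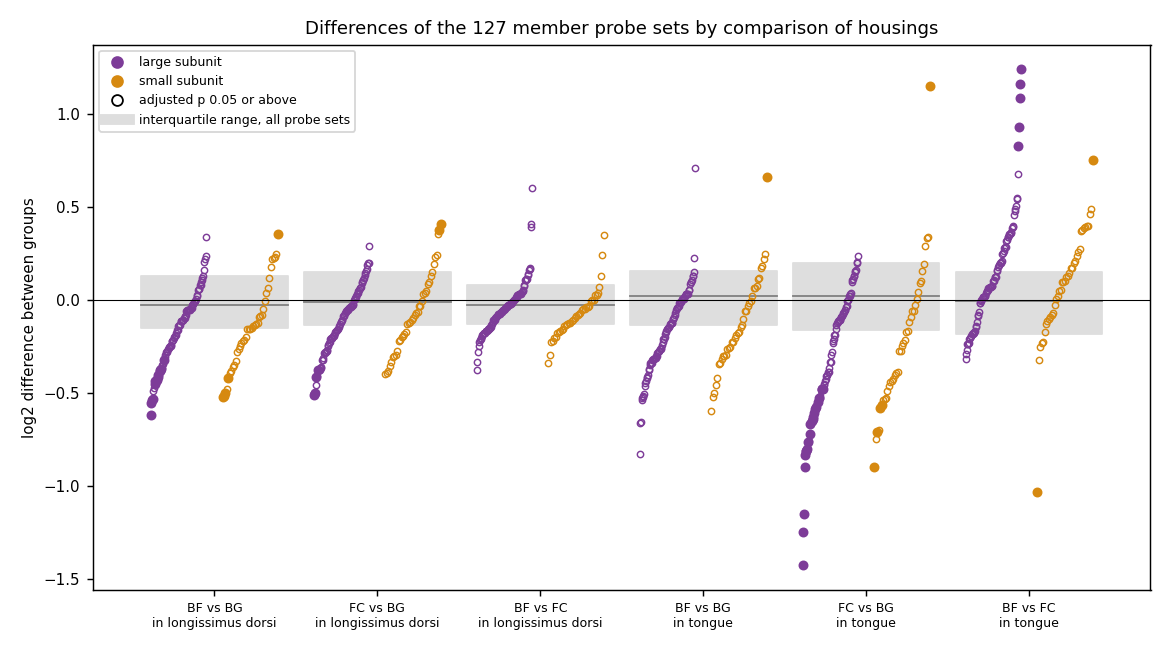
Log2 differences of the 127 member probe sets (vertical axis) in the 6 comparisons of housings, each subunit ordered by size; filled points have an adjusted p under 0.05, the grey band is the interquartile range of all 22626 probe sets and its line is their median. The members lie mostly below the grey median in the 4 comparisons with BG, and the largest differences are in the tongue of FC mice.

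In tongue, flight was followed by 1 member call. Mrps2 rose, this time at its other probe set, with 6.92, 6.73 and 7.16 in BF TN, 6.16, 6.48 and 6.19 in BG TN, and 6.42 and 5.95 in FC TN. The 3 BF TN arrays lay above all others, and BF minus BG was 0.66 (SE 0.16, adjusted p = 0.0479); 5 of the 6 fits that left out 1 array lost this call. Of all probe sets 0.354% were higher and 0.473% lower in this comparison. Without overlap between BF TN and BG TN, 4 members were higher and 38 lower, and 2192 and 2001 of all 22626 probe sets. The medians were -0.16 for the large and -0.17 for the small subunit, against 0.02 over all probe sets. 34 members (26.8%; 15.4% of all probe sets) had an unadjusted p under 0.05. The labels pair no samples, and a block by replicate number was chosen from correlations in these same values. Same-numbered BF TN and BG TN arrays had r from 0.167 to 0.383, while BF TN replicate 1 had 0.226 with BG TN replicate 3. With that block 6 members passed. Mrps2 was higher, and Mrpl1, Mrpl13 (2 of its 3 probe sets), Mrpl15 and Mrps6 were lower by 0.52 to 0.83, with adjusted p from 0.0135 to 0.0456. These names come from that fit and were read after its values were seen, and it called 2.35% of all probe sets. Because the block was chosen from these same values, its adjusted p-values are no independent support for the named genes. Markers of dividing cells were lower in BF TN, 5 of 9 probe sets with a median of -1.09 (array means 5.32 to 5.96 in BF TN and 6.05 to 6.83 in BG TN). Fibroblast markers lay at 8.66 to 8.95 in BF TN and 9.22 to 9.34 in BG TN, with a median difference of -0.22, and endothelium markers at 7.03 to 7.18 and 6.85 to 6.97, with a median of 0.22; 0 of these 18 probe sets passed limma. The part of these cells was not tested.

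The flight difference itself was compared between the muscles. BF minus BG in LD, less BF minus BG in tongue, passed limma for 0 members, with 8 (6.30%; 12.1% of all probe sets) at an unadjusted p under 0.05, and array weights gave 2 member calls and 1051 over all probe sets. Of all probe sets 0.159% were higher and 0.0133% lower. The median of this difference was 0.01 for the large and -0.01 for the small subunit, against -0.03 over all probe sets. Across the 127 members the flight differences in LD and in tongue had r = 0.429 (0.345 over all probe sets), and 81 members were lower in BF in both muscles (63.8%; 29.9% of all probe sets); these are counts and a correlation over probe sets of the same arrays, not over animals.

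Among the comparisons of housings, the most and the largest member differences came from the tongue of facility mice. Against BG TN, 26 probe sets of 23 genes were lower in FC TN and 1 was higher, 22 of 88 lower in the large subunit and 4 of 39 in the small. Of all probe sets 4.33% were lower and 5.13% higher. The median difference was -0.33 for the large and -0.25 for the small subunit, against 0.02 over all probe sets. 3 probe sets fell and 1 rose by over 2-fold. Groups this small often do not overlap: 74 members were lower and 6 higher without overlap, and 4614 and 5519 of all 22626 probe sets. FC TN had only 2 arrays, and without one of them 3 or 5 members passed; without BG TN replicate 1 or 2 the number was 12 or 9. Over all probe sets these 4 fits called 125, 685, 1347 and 670, where all arrays gave 2139.

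Mrpl19, a protein at the face that meets the small subunit, fell most. 1 of its 3 probe sets had 7.18, 7.79 and 7.32 in BF TN, 7.65, 8.003 and 7.43 in BG TN, and 6.24 and 6.29 in FC TN. Both FC TN arrays lay far below the lowest of the others, and FC minus BG was -1.43 (SE 0.22, adjusted p = 0.000614), 2.69-fold lower. Another gave -1.15 (SE 0.22, adjusted p = 0.003), and the last, which lies below the median level of all probe sets, gave -0.01 (SE 0.13, adjusted p = 0.989).

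Mrpl27 had 10.02, 10.34 and 10.09 in BF TN, 10.44, 10.27 and 10.23 in BG TN, and 9.11 and 9.02 in FC TN. Both FC TN values lay below those of every other array of either muscle. The difference was -1.25 (SE 0.18, adjusted p = 0.000337), and it held in all 5 fits that left out 1 array.

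In the stalk, 1 of the 4 probe sets of Mrpl11 had 9.21, 9.19 and 8.997 in BF TN, 9.68, 9.49 and 9.35 in BG TN, and 8.90 and 8.95 in FC TN. FC TN was lowest without overlap, at -0.58 (SE 0.12, adjusted p = 0.00481) against BG TN. Mrpl10 fell by 0.59 (adjusted p = 0.00938), while Mrpl12 gave -0.48 (SE 0.16, adjusted p = 0.0545). The other 3 Mrpl11 probe sets did not pass.

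Among small-subunit proteins, 1 probe set of Mrps23 had 7.62, 7.54 and 7.45 in BF TN, 8.15, 8.12 and 7.83 in BG TN, and 7.17 and 7.10 in FC TN. The 3 groups did not overlap, with BG highest and FC lowest, and FC minus BG was -0.90 (SE 0.19, adjusted p = 0.00552). This call was lost in 2 of the 5 fits that left out 1 array. Mrps22, one of the proteins that only mitochondrial ribosomes have, fell by 0.71 (adjusted p = 0.0395). Mrps11, of the platform, fell at 1 probe set by 0.58 (adjusted p = 0.0309) and Mrps24 at 1 by 0.57 (adjusted p = 0.0415). Mrps22, Mrps11 and Mrps24 each lost the call in 4 of the 5 fits that left out 1 array. The other probe set of each of Mrps23, Mrps11 and Mrps24 did not pass.

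The single member higher in FC TN was the Mrps9 probe set that was also higher in FC LD. It had 5.70, 5.32 and 5.64 in BF TN, 5.63, 5.10 and 5.58 in BG TN, and 6.597 and 6.58 in FC TN. The FC TN arrays lay above every other array of the study, at 1.15 (SE 0.16, adjusted p = 0.000211). The other Mrps9 probe sets did not follow, at -0.54 (SE 0.26, adjusted p = 0.211), -0.49 (SE 0.25, adjusted p = 0.242) and 0.01 (SE 0.14, adjusted p = 0.991). The direction for Mrps9 as a gene therefore depends on the probe set.

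The remaining genes that fell in FC TN against BG TN were Mrpl1, Mrpl13, Mrpl15 (3 of its 7 probe sets), Mrpl17, Mrpl20, Mrpl21, Mrpl22, Mrpl24, Mrpl32, Mrpl40, Mrpl48, Mrpl49, Mrpl50, Mrpl51 and Mrpl54. Their differences ran from -0.48 (Mrpl17) to -0.90 (Mrpl50). All of these are large-subunit genes. For 9 of them, Mrpl1, Mrpl13, Mrpl15, Mrpl17, Mrpl21, Mrpl48, Mrpl49, Mrpl50 and Mrpl51, other probe sets did not pass, with differences from -0.65 (Mrpl50) to 0.21 (Mrpl1). The probe sets of Mrpl1, Mrpl15 and Mrpl49 that passed here were not those that passed in BF LD. Among marker genes, 2 of 9 probe sets for dividing cells were lower in FC TN, with a median of -0.65, and 2 of 14 fibre probe sets were higher, with a median of -0.08. Fibroblast markers had a median of 0.43 over 10 probe sets, 0 of them past the limma threshold, with FC TN arrays at 9.66 to 9.79 and BG TN arrays at 9.22 to 9.34. The part of these cells was not tested.

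BF TN was the highest tongue group for 16 large-subunit and 6 small-subunit probe sets and the lowest for 20 and 8. It was highest for 18.2% and 15.4% (30.1% over all probe sets) and lowest for 22.7% and 20.5% (28.0% over all). Against FC TN, 6 probe sets were higher and 1 lower, where 1.16% of all probe sets were higher and 1.08% lower. The medians were 0.10 in both subunits. Without overlap between these groups, 46 members were higher and 12 lower, and 3981 and 4576 of all 22626 probe sets. Mrpl27 was higher by 1.08 (SE 0.18, adjusted p = 0.00219) and Mrpl19, at the probe set that fell most in FC TN, by 1.16 (SE 0.22, adjusted p = 0.00636). Mrps2, at the probe set that rose in BF TN, gave 0.75 (SE 0.18, adjusted p = 0.024) and Mrpl50 0.93 (SE 0.23, adjusted p = 0.0351). Neither call was kept in every fit that left out a BF TN array. With arrays left out in turn the Mrps2 difference ran from 0.51 to 0.99 and that of Mrpl50 from 0.79 to 1.03. The member lower in BF TN was the Mrps9 probe set named above, at -1.03 (SE 0.16, adjusted p = 0.00123).

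1 probe set of Mrpl9 had the largest difference of this comparison. It had 7.75, 7.82 and 8.002 in BF TN, 7.07, 7.29 and 7.08 in BG TN, and 6.69 and 6.55 in FC TN. BF TN was highest and FC TN lowest, with no overlap, and BF minus FC was 1.24 (SE 0.25, adjusted p = 0.00879). Against BG TN its difference was 0.71 (SE 0.22, adjusted p = 0.126). Without FC TN replicate 1 or 2 the number called against FC TN was 2 instead of 7, and without BF TN replicate 3 it was 4. Over all probe sets these fits called 45, 142 and 302, where all arrays gave 506. Fibroblast markers had a median BF minus FC difference of -0.96 over 10 probe sets, 0 of them past the limma threshold; their part was not tested.

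6 probe sets passed both in BF against BG in LD and in FC against BG in tongue, comparisons that share no arrays: Mrpl13, Mrpl20, Mrpl21, Mrpl22, Mrpl48 and Mrps24, each lower in both. They are 6 of the 19 calls of the first and 6 of the 27 of the second; of all probe sets 424 passed in both, 18.3% and 19.8% of the calls, 374 of them in 1 direction. 5 of the 6 members called in FC against BG in LD were also called, in the same direction, in FC against BG in tongue: Mrpl13, Mrpl20, Mrpl27, Mrpl51 and Mrps9. Over all probe sets 634 passed in both, 31.3% of the calls in LD and 29.6% of those in tongue, and 631 of them had the same direction. Over all 127 members the facility-minus-habitat differences in LD and in tongue had r = 0.764 (0.530 over all probe sets), and 80 were lower in FC in both muscles (63.0%; 31.8% of all probe sets).

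Promoters of the members were read from RefSeq (GRCm38.p6), 250 bases before to 50 after each start. 65 of the 74 genes had an entry, 71 promoters in all. 5 motifs were searched on both strands: the core of NRF-1, a regulator of nuclear genes for mitochondria (GCATGCGC), the ETS core bound by GABP, also called NRF-2 (CCGGAAG), the core of YY1 (AAGATGGC), the TATA box (TATAAA) and the E-box (CACGTG). None of these words contains another. The NRF-1 word was in 11.3% of member promoters (2.71% of all promoters in the table, 4.29% of those of genes on the array). The ETS word was in 33.8% (8.86% and 14.0%) and the YY1 word in 15.5% (2.75% and 3.60%). The TATA word was in 7.04% (13.6% and 9.80%) and the E-box in 9.86% (7.15% and 9.11%). At least 1 of the first 3 was in 36 of 71 member promoters, 50.7%, against 13.3% of all and 20.2% of those on the array; median GC content was 58.7% in members, 52.7% in all and 59.0% on the array. A match is a description of the sequence and not evidence of binding.

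Promoters of 4 genes called above are shown because they carry these words and had probe sets called in one or both muscles, with matches to any of the 5 words in capitals: 2 ETS words in Mrps16 (chr14:20393441-20393740, minus strand, 1 of 2 starts), an ETS and an NRF-1 word in Mrpl22 (chr11:58171414-58171713, plus strand), a YY1 word and, on the opposite strand, a TATA word in Mrps24 (chr11:5707652-5707951, minus strand), and an ETS word in Mrpl27 (chr11:94653541-94653840, plus strand).
Mrps16: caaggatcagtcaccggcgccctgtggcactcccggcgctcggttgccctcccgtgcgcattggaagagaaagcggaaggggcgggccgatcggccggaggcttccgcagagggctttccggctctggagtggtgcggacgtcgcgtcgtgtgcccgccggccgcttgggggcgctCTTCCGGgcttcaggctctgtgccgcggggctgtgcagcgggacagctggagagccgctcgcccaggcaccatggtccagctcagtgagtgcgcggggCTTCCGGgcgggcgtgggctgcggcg
Mrpl22: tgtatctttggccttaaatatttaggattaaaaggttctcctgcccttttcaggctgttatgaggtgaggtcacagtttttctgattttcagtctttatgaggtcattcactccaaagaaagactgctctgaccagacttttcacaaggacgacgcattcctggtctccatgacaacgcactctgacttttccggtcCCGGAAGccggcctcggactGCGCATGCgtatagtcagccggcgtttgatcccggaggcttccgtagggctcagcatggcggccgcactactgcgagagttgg
Mrps24: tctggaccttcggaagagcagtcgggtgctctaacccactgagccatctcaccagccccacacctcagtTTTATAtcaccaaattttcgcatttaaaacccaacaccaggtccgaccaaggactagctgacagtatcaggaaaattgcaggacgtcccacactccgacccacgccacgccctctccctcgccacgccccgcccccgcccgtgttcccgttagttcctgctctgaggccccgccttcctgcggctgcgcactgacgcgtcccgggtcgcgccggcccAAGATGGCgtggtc
Mrpl27: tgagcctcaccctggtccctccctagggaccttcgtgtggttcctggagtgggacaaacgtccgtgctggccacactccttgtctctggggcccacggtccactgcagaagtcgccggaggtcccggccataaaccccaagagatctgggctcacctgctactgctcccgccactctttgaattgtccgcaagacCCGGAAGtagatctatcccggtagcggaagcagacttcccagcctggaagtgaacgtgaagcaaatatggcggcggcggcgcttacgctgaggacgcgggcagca
Mrpl20, called in 3 comparisons (chr4:155802628-155802927), held none of the first 3 words and 1 E-box in this window. The 74 genes lie on 17 chromosomes, at most 11 on one.

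The muscles differed far more than the housings. Averaged over the 3 housings, 98 member probe sets were higher in LD than in tongue and 5 lower, 64 and 4 in the large and 34 and 1 in the small subunit. Of all probe sets 45.3% were higher and 24.5% lower. The median difference was 0.42 for the large and 0.50 for the small subunit, against 0.14 over all probe sets. By housing, the median was 0.32 and 0.45 in BF, 0.28 and 0.48 in BG, and 0.59 and 0.67 in FC, against 0.10, 0.18 and 0.13 over all probe sets; whether these differ was not tested. With 1 probe set per gene, 64 of 74 genes were higher in LD and 0 lower. That fit called 8906 probe sets in all, in either direction, where the whole series has 12393 genes.

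Mrps21, a small-subunit protein with a bacterial counterpart, had the widest difference. Its LD values were 10.23, 10.31, 10.50, 10.39 and 10.37 in BF LD, 10.69, 10.60, 10.66, 10.76 and 10.40 in BG LD, and 10.41, 10.45, 10.63, 10.39 and 10.36 in FC LD. Its tongue values were 9.45, 9.38 and 9.22 in BF TN, 9.66, 9.43 and 9.73 in BG TN, and 9.29 and 9.37 in FC TN. Every LD array lay above every tongue array, and LD minus tongue was 1.05 (SE 0.06, adjusted p = 4.41e-13), 2.07-fold.

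Mrps18a differed by 1.04 (SE 0.08, adjusted p = 7.98e-11) and Mrps28 by 1.01 (SE 0.09, adjusted p = 1.34e-09). Mrps15, whose bacterial counterpart binds ribosomal RNA in the platform, differed by 0.99 (SE 0.10, adjusted p = 4.82e-09). In the large subunit 1 probe set each of Mrpl51, Mrpl50 and Mrpl38 led, at 0.92, 0.91 and 0.87. The LD and tongue arrays did not overlap for Mrps18a, Mrps28, Mrps15 and Mrpl38.

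The 5 lower probe sets, all below the median level of all probe sets, belonged to Mrpl15 (2 of its 7 probe sets), Mrpl38, Mrps9 and Mrpl52 (1 each), between -0.43 and -0.13. Other probe sets of Mrpl15 and Mrpl38 were higher in LD, as were 3 probe sets of Mrpl52 and 1 other of Mrps9, so these 4 genes had calls in both directions. Of the 23 members below the median level of all probe sets, 11 were higher and 5 lower. Of the 104 at or above it, 87 were higher and 0 lower. The shares of all probe sets at each level are not given here, so these counts are a description without a background of their own.

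**Figure D5:**
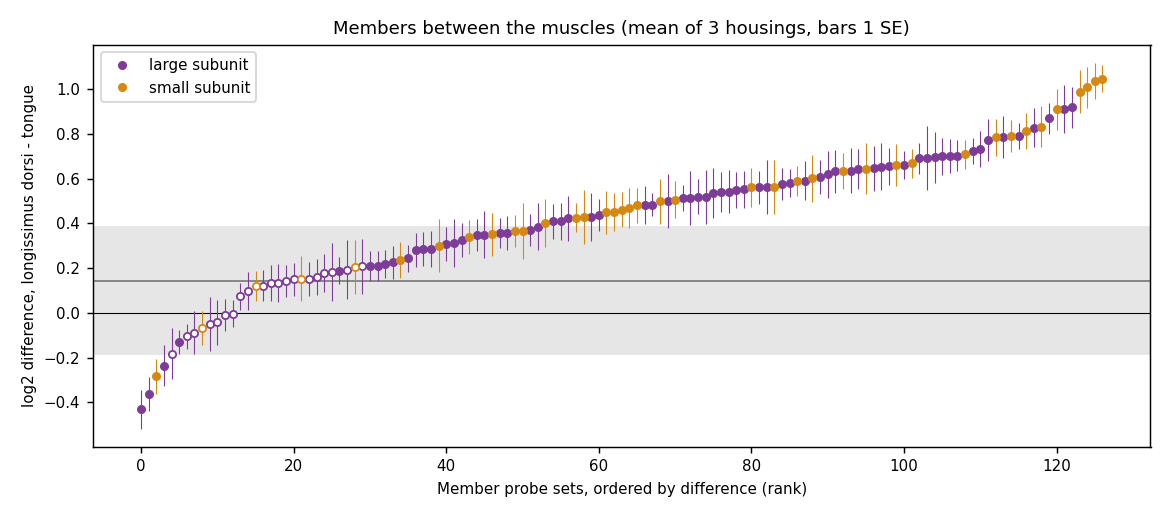
Difference between LD and tongue (log2, mean of the 3 housings) for each member probe set, ordered by size, with bars of 1 SE; filled points have an adjusted p under 0.05 and the grey band is the interquartile range of all probe sets. Small-subunit members reach 1.05, and the few negative values go down to -0.43.

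The tissues also differed in their cells: epithelial markers had a median LD minus tongue difference of -6.40 (16 of 18 probe sets lower). All 14 fibre probe sets were higher, by 0.26 to 5.52 with a median of 0.58. The part of fibre types in the member differences was not tested. All 7 adipocyte probe sets were higher, by a median of 1.58, and 8 of 9 probe sets for dividing cells were lower, with a median of -1.96. Muscle and cell make-up cannot be told apart in these samples. Cytosolic ribosomal proteins went the other way, with 77 of 97 probe sets lower and 9 higher in LD (median -0.46). Oxidative phosphorylation subunits had 92 of 147 higher and 10 lower (median 0.24).

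Other parts of mitochondrial translation were followed through lists of genes. 4 mitoribosomal proteins with other symbols were measured by 5 probe sets, and their medians were -0.24 in BF against BG in LD and -0.45 in FC against BG in tongue. Chchd1, a small-subunit protein, fell in both, by 0.54 (adjusted p = 0.0145) and 0.93 (adjusted p = 0.00568). For 6 translation factors (10 probe sets) the medians were 0.04 and 0.03, and the 1 call was Mtif2, the initiation factor, which fell by 0.94 in FC against BG in tongue (adjusted p = 0.00145).

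The list for the charging of mitochondrial transfer RNA, 13 genes and 19 probe sets, held aminoacyl-tRNA synthetases and the amidotransferase subunits Gatb, Gatc and Qrsl1. In BF against BG in LD the synthetase Ears2 fell at 1 of its 3 probe sets by 0.35 (adjusted p = 0.0321). The subunit Qrsl1 fell at 1 of its 2 by 0.50 (adjusted p = 0.0499), and over all 19 the median was -0.06. Of 15 assembly genes (27 probe sets), limma called 0 in that comparison, with a median of -0.09. Dhx30, an RNA helicase needed for mitoribosome assembly, was higher in FC LD than in BG LD at 3 probe sets, at most by 0.54 (adjusted p = 0.00964).

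The list of mitochondrial transcription and RNA processing held 8 genes and 13 probe sets, and the higher calls came from 2 genes in each comparison. In BF against BG in LD 4 probe sets were higher and 1 lower (6.41% and 3.83% of all probe sets). In FC against BG in LD 5 were higher and 0 lower (6.79% and 2.16% of all). In FC against BG in tongue 3 were higher and 0 lower (5.13% and 4.33% of all). Polrmt, the mitochondrial RNA polymerase, was higher at 1 probe set by 0.61 in BF LD (adjusted p = 0.00189), 0.61 in FC LD (adjusted p = 0.00338) and 0.66 in FC TN (adjusted p = 0.0146), each against BG of the same muscle. Elac2, which trims mitochondrial transfer RNA, was higher at 1 probe set by 0.40 in BF LD (adjusted p = 0.0146) and 0.50 in FC LD (adjusted p = 0.00556).

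Cytosolic ribosomal proteins, 97 probe sets of 46 genes, had 33 lower and 0 higher in BF against BG in LD, with a median of -0.23, and 7 lower and 1 higher in FC against BG in tongue, with a median of -0.17. For the subunits of oxidative phosphorylation, 147 probe sets of 78 genes, these were 8 lower and 0 higher (median -0.13) and 11 lower and 1 higher (median -0.14). In FC against BG in LD the cytosolic list had 18 lower and 1 higher, the other list 1 lower and 2 higher. The cytosolic mean was 10.10, 10.31 and 10.16 in BF, BG and FC LD. In tongue it was 10.546, 10.712 and 10.554, so FC TN was not the lowest group there. The oxidative phosphorylation mean was 11.35, 11.46 and 11.39 in LD, and 11.15, 11.25 and 11.11 in tongue.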

How the data were processed

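The authors hybridised RNA of LD and tongue to Affymetrix mouse arrays and normalised them by RMA in Partek, which the submitters' processing notes name; the deposited values are log2 intensities, 22626 probe sets on 23 arrays, between 2.24 and 14.5. RMA sets all arrays to one distribution, so a shift shared by all genes would not show. The probe-level files and any scan date were not used here, so batches could not be tested, and the precision is set by the number of arrays. The platform annotation gave 1 gene for 20380 probe sets, several for 691 and none for 1555. All columns of the table were used.

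In R 4.3.3, limma 3.58.1 fitted 6 group means (lmFit, eBayes; 17 residual degrees of freedom) without a replicate block, and p-values of each contrast were corrected across the whole array (Benjamini-Hochberg, threshold 0.05). Groups came from the sample labels. Samples were taken as single mice, as the labels describe them. The members, the gene lists and the marker lists were chosen with earlier results of these data known. Values in every sample are given for up to 4 members of each subunit and direction with the smallest adjusted p (between muscles, the largest difference), and statistics for members chosen for their role (stalk, decoding and peptidyl transferase proteins). Of gene lists, up to 2 genes with the smallest adjusted p are named. The fitting steps were tested on simulated data. Alternatives were other normalisations and moderations, array weights, level filters, 1 probe set per gene, each muscle alone, a replicate block and leaving out each array; leaving out the 3 LD arrays of widest spread was added after seeing the data.

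Same-numbered samples had correlations of their deviations of 0.167, 0.383 and 0.203 between BF and BG tongue, all over 0.1, so the blocked fit is given beside that comparison; the pairing comes from these values and not from the labels. In LD the correlations ran from -0.22 to 0.55, and FC tongue has only 2 numbers, so no pairing was taken there.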

Additional observations from a re-analysis of the deposited data

Results flagged for a closer look

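In 198 groups of 4 or more arrays, over 64 named probe sets of 36 genes and the subunit means, 25 values lay further from their group than a gap test at the 95% level allows; chance flags about 1 in 20 groups. BG LD replicate 5 accounts for most of them. Its mean over large-subunit probe sets was 8.26, where the others lay between 8.63 and 8.72, and over small-subunit probe sets 8.60, where the others lay between 8.94 and 9.04. It was the lowest of BG LD, away from the other 4 arrays, for Mrpl51 (7.003), Mrps9 (6.72), Mrps14 (11.15), Mrps36 (10.09), Mrpl50 (8.29), Mrpl13 (10.47), Mrpl15 (9.57 and 10.81 at 2 probe sets), Mrpl9 (7.11), Mrps5 (7.0003), Mrps16 (10.61), Mrpl19 (7.07) and Mrps24 (10.75). It was the highest for Mrps15, at 9.90.

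Other arrays were set apart for single probe sets. FC LD replicate 1 was low for Mrps14 (11.21), FC LD replicate 2 low for Mrpl19 (7.73), and BF LD replicate 1 low for Mrpl15 (9.57). FC LD replicate 4 was high for Mrps36 (10.66) and low for Mrpl52 (3.06), and FC LD replicate 3 was high for Mrps15 (9.98). BF LD replicate 2 was high for Mrpl11 (4.10) and Mrpl52 (10.27), and BG LD replicate 1 was high for Mrps9 (5.57).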

How the results depend on the processing

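No named member changed sign in any alternative run, nor did any median except that of the difference between the muscles in BF against BG, which lies near 0: the large-subunit one (0.0078) ran from -0.11 with the replicate block to 0.05 without BF LD replicate 1, and the small-subunit one (-0.0061) from -0.14 with the block to 0.07 without BG TN replicate 3. Of the named members' results, 120 lost and 14 gained the threshold. The counts below are of member probe sets past the limma threshold, and the cause of each change was not tested unless fewer arrays or probe sets entered. BF against BG in LD (19) ranged from 8 to 47 when arrays were left out in turn, and was 8 with each muscle fitted alone, 47 with array weights and 43 without the 3 LD arrays of widest spread. The last 3 settings called 1755, 5095 and 3717 of all probe sets, and the main fit 2318. FC against BG in LD (6) ranged from 0 to 45 and was 28 with array weights and 33 without the 3 arrays. These 2 settings called 3016 and 3450 of all probe sets, and the main fit 2025. BF against FC in LD (0) ranged from 0 to 1. It was 1 with probe sets at or above the median level, 1 with quantile normalisation within each muscle, 4 with array weights, 1 with the replicate block and 2 without the 3 arrays. The counts over all probe sets were 771, 874, 1672, 1052 and 937 in the same order, and 827 in the main fit. BF against BG in tongue (1) ranged from 0 to 5. It was 0 without moderation, 0 with trend and robust moderation, 0 with median centring, 0 with 1 probe set per gene, 2 with quantile normalisation and 23 with array weights. Here the counts over all probe sets were 109, 174, 191, 103, 302 and 1839 in the same order, and 187 in the main fit. FC against BG in tongue (27) ranged from 3 to 28 and was 59 with array weights. BF against FC in tongue (7) ranged from 2 to 5, and was 16 with array weights and 1 with 1 probe set per gene. LD against tongue (103) ranged from 99 to 113 and was 64 with 1 probe set per gene, a setting that called 8906 in all. The main fit called 15783 there. The difference between the muscles in BF against BG (0) was 2 with array weights and 1 without the 3 arrays, with 1051 and 409 over all probe sets and 39 in the main fit. Array weights called 4763 of all probe sets in FC against BG in tongue and 2031 in BF against FC in tongue. The main fit called 2139 and 506 there.

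For FC against BG in tongue the large-subunit median (-0.33) was -0.43 at or above the median level, -0.38 with median centring and -0.44 with 1 probe set per gene, and the small-subunit median (-0.25) -0.33 at or above the median level, -0.39 with 1 probe set per gene and -0.32 to -0.15 with arrays left out. For BF against BG in tongue the large-subunit median (-0.16) was -0.24 at or above the median level, and the small-subunit one (-0.17) -0.0660 with quantile normalisation and -0.21 to -0.0656 with arrays left out. For BF against FC in tongue the large-subunit median (0.10) was 0.18 at or above the median level, 0.21 with 1 probe set per gene and 0.0882 to 0.15 with arrays left out, and the small-subunit median 0.0465 to 0.14.

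The replicate block moved FC against BG in tongue to 42 calls, with a large-subunit median of -0.39, BF against BG in tongue to 6 and BF against FC in LD to 1. Its counts over all probe sets were 3171, 532 and 1052, and those of the main fit 2139, 187 and 827. A sample correlated best with its own number in another housing in 13 of 30 cases in LD and 7 of 14 in tongue. Only between BF and BG tongue were all same-numbered correlations over 0.1, and the labels do not give this pairing. Where leaving out an array left 1 FC TN array, that array is assumed to vary like the other groups. Dim probe sets near background carry little information on change.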
